A study of Mus musculus with 64 samples.

Results

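The 16 striatal RNA libraries of this series carry a library number in their labels, running from 1 to 17, and were compared here by that number. Libraries 1 to 8 are called early and libraries 9 to 17 are called late. Each set holds 8 of the 16 mice, and number 14 was not analysed here. The choice of members used the number in the labels and no measured value. The question was whether any gene, gene group or library measure differed between early and late libraries once the labelled genotype was taken into account. The labels do not say what the number stands for, whether dissection, extraction or library preparation, so late minus early means only a higher number.

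All mice were naive and about 50 days old, labelled Csnk1e knockout or wild type. The 5 early knockouts are the mice labelled knockout 1 to 5, and the 3 early wild types are wild type 1 to 3. The late set holds the 3 mice labelled knockout 6 to 8 and the 5 labelled wild type 4 to 8. The labels say no more of the knockout than its gene: the deleted part, the strain and the sex are not stated. The mice were decapitated live, the left and right striatal punches of a mouse were combined and kept in RNAlater, and poly(A) RNA was sequenced, so each library mixes all cells of the punch. Each library was read in 4 lanes, 2 on each of 2 flow cells, and every library was in every lane, so early and late libraries do not differ in lane or flow cell.

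The striatum is made mostly of GABAergic projection neurons of the direct and indirect pathways, with a smaller number of interneurons. Around them lie astrocytes, which clear glutamate from the synaptic cleft, oligodendrocytes, which wrap the passing fibre bundles in myelin, microglia, and vessels lined by endothelial cells and held by mural cells. A punch near its border can also take up cortex, ependyma, choroid plexus or meninges. Transcripts that answer to the time of day, to handling, to temperature or to the time before RNA is fixed are known, and they are natural genes to examine when libraries are split by order. Projection neuron markers were present in every library. Summed over 9 direct pathway genes they stood between 511 and 832 CPM (read counts relative to TMM-scaled library size), and summed over 9 indirect pathway genes between 1210 and 1945 CPM.

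Library depth and composition did not separate early from late. Gene reads ran from 22088005 to 28254079 in the early libraries and from 22498835 to 30238947 in the late ones. Over 8 measures of depth, counting categories, GC content and gene length, an exact two-sided permutation test over the 3136 labellings that keep the numbers in each labelled genotype gave 0.36 as the smallest p and 0.992 as every adjusted p. Late libraries were more spread in the mean GC percent weighted by reads, 49.78 ± 0.229 (SD, n = 8), than early libraries at 49.8 ± 0.056 (SD, n = 8). On the first 4 principal components the ranges of early and late libraries overlapped. The 3 late libraries labelled knockout 8, wild type 6 and wild type 7 and the 2 early ones labelled knockout 3 and knockout 4 had Xist, the RNA that silences an X chromosome in females, above 1000 CPM, so 2 of 8 early and 3 of 8 late libraries did. The library labelled knockout 3 also held 6.97 CPM of the Y-linked gene Ddx3y, against 0.163 to 0.873 CPM in the other 4. Choroid plexus transcripts stood far above the rest in 1 early library, labelled knockout 1, and in 1 late library, labelled wild type 7.

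Csnk1e, the targeted gene, whose kinase phosphorylates the PERIOD clock proteins, was ordered in opposite ways by the genotype labels in early and late libraries. It lies on chromosome 15 from 79417856 to 79455566 (GRCm38). The early labelled knockouts 1 to 5 had 71.7, 75.3, 77.3, 76.7 and 79.5 CPM. The early labelled wild types 1 to 3 had 42.9, 44.9 and 42 CPM. The late labelled knockouts 6 to 8 had 38, 44.7 and 39.2 CPM, and the late labelled wild types 4 to 8 had 83.9, 77.7, 86.6, 72 and 42.9 CPM. All early labelled knockouts were above all early labelled wild types, whereas the late labelled knockouts lay among the low values and 4 of the 5 late labelled wild types among the high ones. The exception was the library labelled wild type 8, the last by number. In all, 5 of 8 early and 4 of 8 late libraries lay above the gap between 44.9 and 71.7 CPM. Every sentence below on a genotype is therefore about labels, and the targeted gene goes against them in the early set, where every library labelled knockout was high, and in the late library labelled wild type 8.

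No gene passed the test between late and early libraries. Of 15691 genes tested by edgeR with the labelled genotype as covariate, 0 (0%) were called higher in the late libraries and 0 (0%) lower, at an adjusted p under 0.05. The smallest adjusted p by edgeR was 0.988. At an unadjusted p under 0.05 there were 288 genes higher in late (1.84% of those tested) and 299 lower (1.91%). By DESeq2 there were 0 calls and 567 genes under the unadjusted threshold, and by limma-voom 0 calls and 595 genes. The median log2 fold change over all genes was 0.005, and 52.6% of genes had a value above 0. The genes below are described by their values, since none of them is a called change.

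Of the 10 genes lower in late libraries by smallest p, Slc1a2 is on the astrocyte list and Vtn on the mural cell list, and the other 8 are on neither of these nor on the endothelial list. Slc1a2, the main glutamate transporter of astrocytes, on chromosome 2 from 102658659 to 102790784, was the gene with the smallest p in that direction. In early libraries 1 to 8 it stood at 4792, 4794, 4995, 4582, 4866, 4827, 4626 and 4597 CPM, and in late libraries 9 to 17 at 4522, 4359, 4180, 4339, 4384, 4248, 4289 and 3912 CPM. Every late library was below every early library, in both labelled genotypes. The means were 4760 ± 146 CPM (SD, n = 8) early and 4279 ± 179 CPM (SD, n = 8) late, so the log2 fold change was -0.15 (95% interval -0.22 to -0.08) with edgeR adjusted p = 0.999. Such a separation of CPM was seen in 4 genes lower in late (0.0255% of those tested) and 2 higher (0.0127%). The other 3 lower ones, named after their values were seen, were Mfn2, which fuses mitochondria, Pfkp, a phosphofructokinase of glycolysis, and Magee1, a MAGE family gene on the X chromosome. Mfn2 held 228 to 246 CPM early and 208 to 226 CPM late, Pfkp 245 to 267 and 205 to 243 CPM, and Magee1 122 to 133 and 114 to 120 CPM. Their log2 fold changes were -0.09, -0.11 and -0.11. In each of these 3 genes the gap between the sets was narrower than the range within either set.

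The remaining 9 genes with the smallest p lower in late had log2 fold changes from -0.96 to -0.17, all with edgeR adjusted p = 0.999. Abcc4, an exporter of organic anions, stood at 20.9 to 27.3 CPM early and 17.3 to 21.5 CPM late, with 7 of 8 late libraries below every early one and a log2 fold change of -0.27 (SE 0.06). Vtn, which encodes vitronectin and in brain is made by pericytes, stood at 73.4 to 90.1 CPM early and 57.1 to 78.6 CPM late, a value of -0.23 (SE 0.06). Dner, a Notch-like receptor of neurons, stood at 90.2 to 116 CPM early and 81.9 to 97.0 CPM late. Tnks1bp1, which binds tankyrase, held 51.3 to 60.3 and 45.6 to 51.6 CPM, and Tgm2, a transglutaminase, 15.8 to 21 and 12.8 to 17.8 CPM. Lrp4, the agrin receptor, had -0.26, and the library labelled wild type 5 at 36.2 CPM was its lowest by a wide margin. Aldh1a2, an enzyme of retinoic acid synthesis found in meninges, was at 1.21 to 2.83 CPM early and 0.629 to 1.46 CPM late. Galnt15, of the family that starts mucin-type glycans, was at 2.46 to 3.78 CPM early and 1.37 to 2.92 CPM late. The pseudogene Gm6498 was at 0.425 to 0.731 and 0.0801 to 0.575 CPM, from 2 to 21 reads per library.

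Among the genes higher in late libraries, Pigp and Cdkl3 separated the sets. Pigp, a subunit of the enzyme that starts GPI anchors, on chromosome 16 from 94358763 to 94371842, stood at 24.3, 24.8, 24.9, 23.8, 24.2, 23.4, 24.6 and 24.2 CPM in early libraries 1 to 8. In late libraries 9 to 17 it stood at 27.7, 25.9, 26.2, 27.5, 25, 28.1, 29.3 and 27.6 CPM. All 8 late values lay above all early ones, although the lowest late value was next to the highest early one. Its log2 fold change was 0.15 (SE 0.04, 95% interval 0.07 to 0.23), with edgeR adjusted p = 0.999. Cdkl3, a cyclin-dependent kinase-like gene, stood at 8.95 to 10.1 CPM early and 10.2 to 11.9 CPM late, a log2 fold change of 0.18. Ap1m2, the adaptor subunit of epithelial cells, had the smallest p of all genes at 0.78 log2 (SE 0.15) with edgeR adjusted p = 0.988, at 0.433 to 0.729 CPM early and 0.705 to 1.12 CPM late, which is 11 to 30 reads per library. The other 7 had log2 fold changes from 0.15 to 0.90. They were Ndufa2, a complex I subunit, at 47.7 to 55.5 CPM early and 52.1 to 64.8 late, Bola2, which acts in iron-sulfur transfer, at 16.1 to 18.8 and 18.2 to 21 CPM, and 0610009B22Rik at 11.3 to 13.1 and 13.0 to 15.3 CPM. The rest were 9430015G10Rik at 19.9 to 25.1 CPM and 3 features at or under 1.08 CPM in every library, Rps27, Mir208b and the antisense RNA Gm16062. Rps27 has near-identical copies elsewhere in the genome and reads with more than 1 alignment were not counted, so its value is uncertain. Gm16062 overlaps a gene on the other strand and is uncertain too, since the strand setting is not given.

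**Figure D1:**
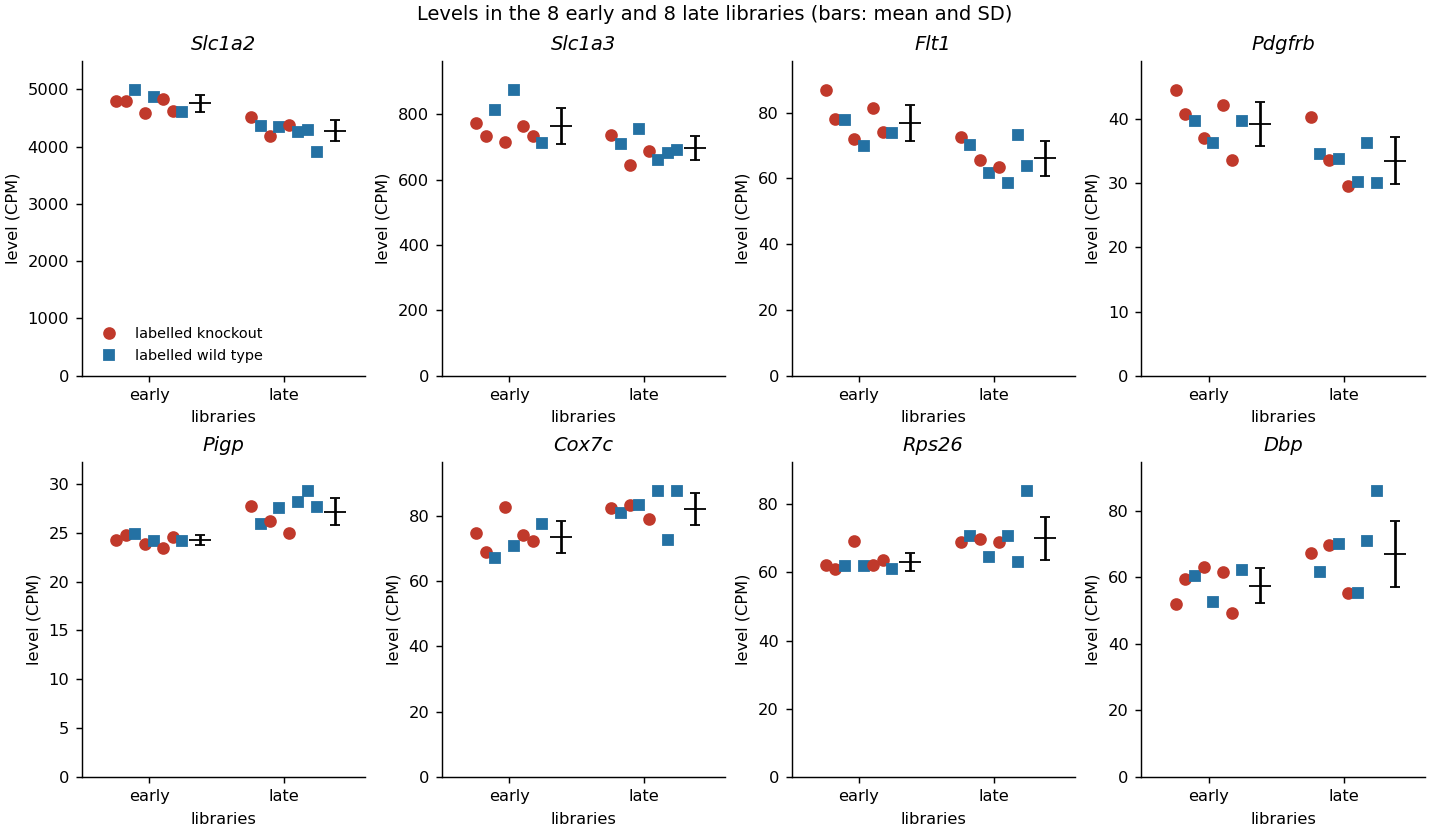
Levels in CPM (y axis, from 0) of 8 genes in the 8 early and 8 late libraries, ordered by library number within each set, with red circles for labelled knockout, blue squares for labelled wild type and black bars for mean and SD. Slc1a2 and Pigp do not overlap between the sets, at 4582 to 4995 against 3912 to 4522 CPM and 23.4 to 24.9 against 25 to 29.3 CPM, and the other 6 genes overlap.

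Transcripts of ribosomal proteins and of nuclear-encoded respiratory subunits lay slightly higher in late libraries almost throughout. Of 80 tested cytosolic ribosomal protein genes, the building blocks of the translation machinery, 79 had a value above 0, with a median log2 fold change of 0.09. Of these 0 were called, and 27 (33.8%) had an unadjusted p under 0.05 in that direction, against 1.84% of all genes. Of 78 nuclear oxidative phosphorylation genes 73 had a value above 0, with a median of 0.08, and 0 were called. Of them, 21 (26.9%) had an unadjusted p under 0.05, higher in late. In the labelled knockouts alone 64 of 80 ribosomal genes were above 0 with a median of 0.05, and in the labelled wild types 79 of 80 with a median of 0.12. For the respiratory list these were 58 of 78 with 0.04 and 73 of 78 with 0.12. The members of either list were measured in the same libraries, so their counts are not independent of each other. Rps27, whose value is uncertain as given above, is 1 of the 80 ribosomal genes and the highest at 0.68. Whether reads with more than 1 alignment, which were not counted, affect other members was not tested.

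Single members show the size of this shift against the spread of libraries. Cox7c, a subunit of cytochrome oxidase, stood at 67.1 to 82.6 CPM early, median 73.2, and 72.7 to 87.7 CPM late, median 82.9. Ndufa1, of complex I, stood at 51.0 to 60.5 and 57.3 to 65.0 CPM. Rps26, of the small ribosomal subunit, stood at 61.1 to 69.2 and 63.0 to 84.0 CPM, where the early library labelled knockout 3 and the late library labelled wild type 8 were the highest of their sets. Rpl29, of the large subunit, held 144 to 164 CPM early and 145 to 181 CPM late. The sets overlapped in all 4 genes, and their log2 fold changes were 0.13 to 0.17. The ribosomal list score, the mean of centred log2 CPM over members, ran from -0.12 to 0.10 in early libraries with a median of -0.05, and from -0.04 to 0.10 in late libraries with a median of 0.05. The early library labelled knockout 3 had the early maximum.

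A smaller shift went with the exonic length of genes. The correlations and length classes below include the members of the ribosomal and respiratory lists. Among 15511 tested genes with a length, the late minus early log2 fold change had a Spearman correlation with exonic length of -0.16, across genes, which are not independent replicates. It was -0.14 within the labelled knockouts and -0.11 within the labelled wild types. Genes of up to 1000 exonic bases had a median log2 fold change of 0.059, with 66.8% above 0. The median declined over the 8 length classes to -0.010 for genes over 12000 bases, of which 41.1% were above 0. In the shortest class 7.83% of genes had an unadjusted p under 0.05 higher in late and 1.61% lower, and in the longest class 0.117% and 3.28%. Among 1114 genes under 1500 bases on neither the ribosomal nor the respiratory list, 707 were above 0 and the median was 0.04. In this set 4.94% had an unadjusted p under 0.05 higher in late and 1.71% lower. The ribosomal and respiratory lists have median lengths of 1776 and 1675 bases. Genes over 1000 and up to 2000 bases had a median of 0.032, below the list medians of 0.09 and 0.08. Of them 4.78% had an unadjusted p under 0.05 higher in late, against 33.8% and 26.9% of the lists. The 13 tested replication-dependent histone genes, of median length 1560 bases, had a median of -0.05, with 9 below 0. The correlation with GC content was -0.05 over all libraries, but 0.06 within the labelled knockouts and -0.14 within the labelled wild types, where it was larger in size than that with length. The mean exonic length weighted by reads was 6797 ± 66.5 bases (SD, n = 8) early and 6751 ± 105 bases (SD, n = 8) late, a difference that did not pass the exact permutation test (p = 0.448, adjusted p = 0.992). Whether fragmentation, library preparation or RNA content differed with the number was not tested.

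**Figure D2:**
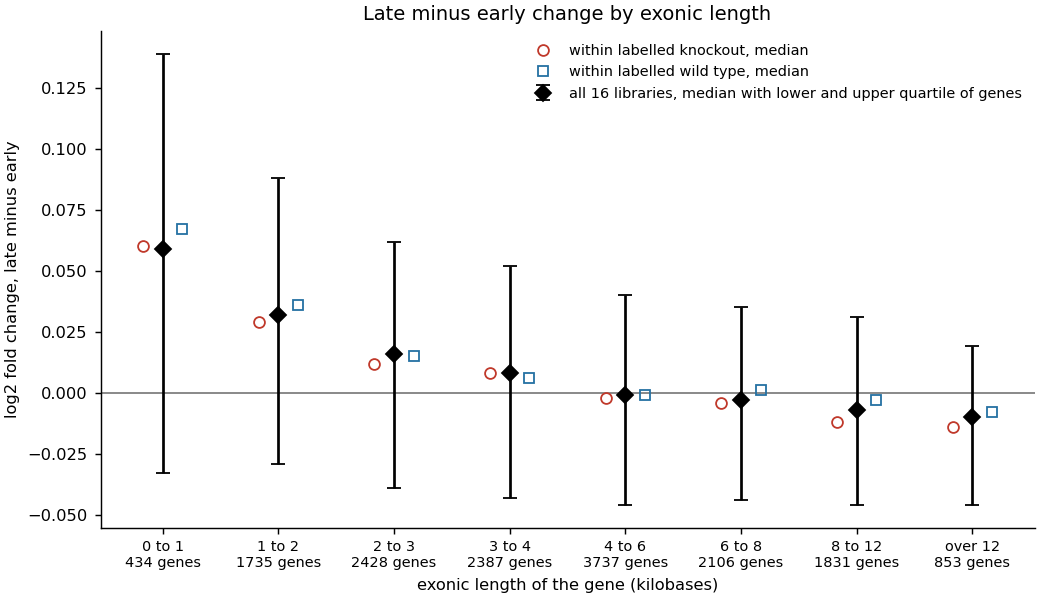
Log2 fold change, late minus early (y axis), for genes grouped by exonic length in kilobases (x axis, with the genes in each class), as black diamonds for the median with bars from the lower to the upper quartile, and open symbols for medians within each labelled genotype. The median passes from 0.059 in the shortest class to -0.010 in the longest, while the quartiles span 0 in every class.

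Vascular and meningeal lists lay mostly below 0 in late libraries. Of 13 endothelial genes 11 were below 0, with a median of -0.08, with 0 called, while 5 (38.5%) were under the unadjusted threshold in that direction (1.91% of all genes were). Flt1, a VEGF receptor, stood at 70.0 to 87.0 CPM early, median 76.0, and 58.7 to 73.1 CPM late, median 64.7, and its log2 fold change was -0.20 (95% interval -0.31 to -0.09). Pecam1, an adhesion molecule of endothelium, had -0.14, and Abcb1a, the P-glycoprotein efflux pump of the blood-brain barrier, had -0.18. Of 11 mural cell genes 10 were below 0, with a median of -0.13, and 3 (27.3%) had an unadjusted p under 0.05 lower in late. Pdgfrb, the receptor that holds pericytes on vessels, stood at 33.7 to 44.6 CPM early and 29.5 to 40.4 CPM late, and Myh11, smooth muscle myosin, at 8.60 to 14.8 and 6.24 to 10.8 CPM. All 11 meningeal fibroblast genes were below 0, with a median of -0.22, among them the GABA transporter Slc6a13 with -0.63 and the anion transporter Slc22a6 with -0.53. Of these 11 genes 1 (9.09%) had an unadjusted p under 0.05. Summed meningeal markers ran from 66.7 to 157 CPM early and from 50.2 to 169 CPM late, so the sets overlapped fully. The 2 libraries that carried choroid plexus RNA, labelled knockout 1 and wild type 7, had the highest meningeal scores of their sets at 0.75 and 0.66. With single libraries left out the meningeal median ran from -0.38, without wild type 7, to -0.15. Without both knockout 1 and wild type 7, it was -0.28, the mural -0.14 and the endothelial -0.07. In bulk tissue, fewer cells of a type and less RNA per cell cannot be told apart.

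Astrocyte genes were mixed. Of 15 tested, 10 were below 0 with a median of -0.09, against 7430 of 15691 genes below 0 in all, and 4 (26.7%) had an unadjusted p under 0.05 lower in late, against 1.91% of all genes. Slc1a3, the second astrocyte glutamate transporter, stood at 713 to 876 CPM early and 646 to 755 CPM late, with a log2 fold change of -0.15 (SE 0.05). Aldh1l1, of folate metabolism, had -0.16. The other 5 genes of the list were above 0 and reached 0.42, farther from 0 than the lowest at -0.16. Of these 0 had an unadjusted p under 0.05. The astrocyte list score ran from -0.19 to 0.23 early and -0.17 to 0.20 late, so the list as a whole did not separate the sets as Slc1a2 did. Summed astrocyte markers, of which Slc1a2 is a large part, ran from 9297 to 10169 CPM early and from 8621 to 9341 CPM late.

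Glial lists on the other side of 0 were those of oligodendrocytes and ependyma. Of 18 oligodendrocyte genes 17 were above 0 with a median of 0.12, but 0 had an unadjusted p under 0.05. Mbp, myelin basic protein, stood at 3652 to 6143 CPM early and 4184 to 7325 CPM late, and Mog, a myelin surface protein, at 119 to 211 and 148 to 262 CPM. These ranges are wide and the 4 highest Mbp values are late. Without the late library labelled knockout 7 the list median was 0.04. Of 8 precursor genes 5 were above 0 and 3 below, the lowest at -0.15, with a median of 0.07. Bmp4 at 0.30, Enpp6 at 0.26 and the receptor Gpr17 at 0.11, genes of cells about to become oligodendrocytes, had an unadjusted p under 0.05. These were 37.5% of the list, against 1.84% of all genes. All 10 ependymal genes were above 0 with a median of 0.24, among them Foxj1, the master factor of motile cilia, with 0.22 and the adenylate kinase Ak7 of cilia with 0.51, and 0 passed that unadjusted level. The early library labelled knockout 2 was low in ependymal genes, with a score of -1.23 and 0.567 CPM of Ak7, and without it the median was 0.15. Without the late library labelled knockout 7 it was 0.14. Microglial genes had a median of -0.02, with Csf1r, the receptor that keeps microglia alive, at -0.13. Blood markers were low throughout, with 6 of the 7 found in the files under 1 CPM.

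Choroid plexus values rest on single libraries. Their median late minus early value was -2.49 within the labelled knockouts, with 0 of 9 above 0, and 2.62 within the labelled wild types, with 9 of 9 above 0. The list score was 3.88 in the early library labelled knockout 1 and 4.57 in the late library labelled wild type 7, and -1.25 to 0.67 in the other 14. Over all libraries the median was 0.20, and it was -0.35 without both of these libraries. It was also below 0 without wild type 1, 2 or 3, at -0.44, -0.44 and -0.28.

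Lists of striatal projection neurons lay near 0, and those of cortical and ventral striatal neurons did not in every fit. Of 15 genes shared by projection neurons 12 were above 0, with a median of 0.04. Ppp1r1b, which encodes DARPP-32, stood at 861 to 1273 CPM early and 858 to 1400 CPM late. The D1 receptor gene Drd1a stood at 194 to 293 and 180 to 325 CPM, Drd2 at 104 to 152 and 90.9 to 159 CPM, and Penk, the enkephalin precursor, at 881 to 1165 and 766 to 1312 CPM. Their log2 fold changes were 0.04, 0.05, -0.01 and 0.02, with 95% intervals that reach from -0.25 to 0.30 over the 4 genes, and the late range was the wider one in each. Direct and indirect pathway lists had medians of 0.04 and 0.06. Cortical excitatory neuron genes had a median of -0.12, with 11 of 14 below 0 and 0 at an unadjusted p under 0.05. That median was -0.03 without the library labelled knockout 6, -0.07 without wild type 7 and -0.20 without wild type 4. Tbr1, a cortical transcription factor, stood at 46.0 to 86.3 CPM early and 35.1 to 90.7 CPM late. Ventral striatal genes had a median of 0.02 over all libraries, but 0.50 within the labelled knockouts and -0.18 within the labelled wild types, and 0 of these genes were called in the interaction. Nts, neurotensin, was at 2.12 to 3.57 CPM early and 2.28 to 7.06 CPM late, and the 4 late values above all early ones were those of all 3 late labelled knockouts and of wild type 7. Nos1, of nitric oxide interneurons, had -0.25. Receptor and channel lists had medians between -0.04 and 0.01.

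**Figure D3:**
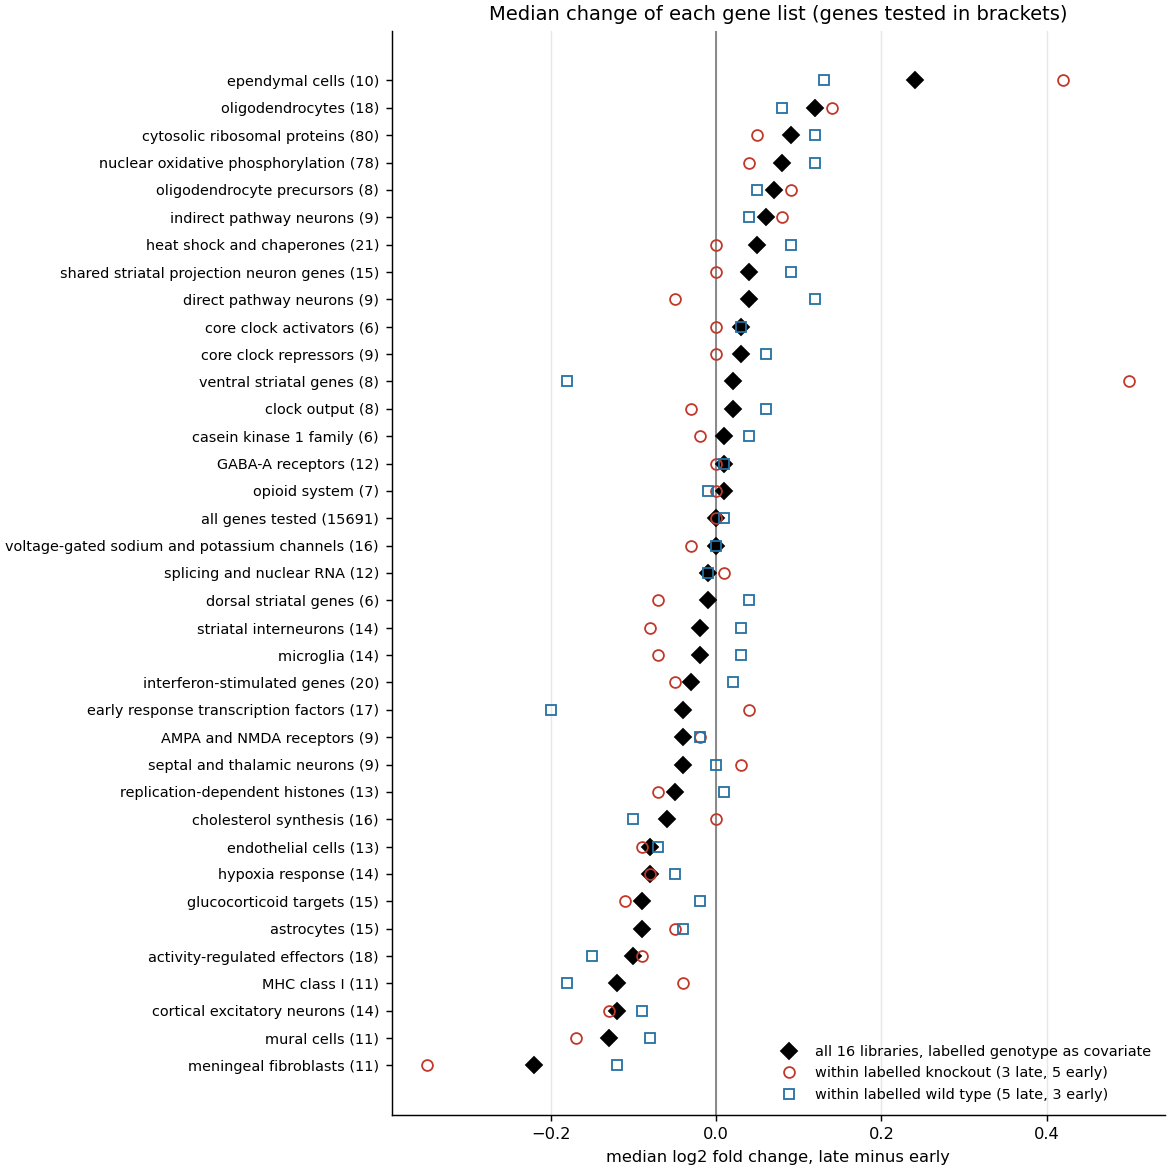
Median log2 fold change, late minus early (x axis), of each gene list with at least 5 tested genes (y axis, tested genes in brackets), as black diamonds for all libraries and open symbols within each labelled genotype. Choroid plexus (-2.49 and 2.62 within genotypes) and the X- and Y-linked list are left out for scale, and the medians over all libraries of the rest lie between -0.22 for meningeal fibroblasts and 0.24 for ependymal cells.

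Genes that follow the time of day did not separate the sets. The circadian clock runs on activators such as Arntl (Bmal1) and repressors such as Per1 and Per2, whose transcripts swing over the day in striatum. The 9 repressor and 6 activator genes both had a median of 0.03, and the 8 output genes 0.02. Per1 stood at 84.8 to 134 CPM early and 71.3 to 130 CPM late, Per2 at 39.0 to 63.7 and 39.7 to 80.4 CPM, Arntl at 27.7 to 35.0 and 24.5 to 37.6 CPM, and Nr1d1, a repressor of Arntl, at 160 to 185 and 151 to 188 CPM. Their log2 fold changes were -0.15, 0.13, -0.06 and -0.03, with intervals that hold 0. Dbp, a clock-driven transcription factor, was the only list member among these 23 with an unadjusted p under 0.05, at 49.2 to 63.0 CPM early and 55.2 to 86.1 CPM late, a log2 fold change of 0.20 (95% interval 0.03 to 0.38) and edgeR adjusted p = 0.999. Per2 was high in the late libraries labelled wild type 5 and knockout 8, at 80.4 and 74.2 CPM.

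Genes of handling, stress and activity gave no called difference either. Of 18 activity-regulated effectors 16 were below 0 with a median of -0.10, and 0 had an unadjusted p under 0.05. Arc, a synaptic gene induced by activity, ran from 46.1 to 171 CPM early and from 52.2 to 129 CPM late, and Fos, an early response factor, from 2.92 to 13.9 and from 4.35 to 13.2 CPM. The early library labelled knockout 3 was the lowest in both genes. Atf3, a stress-induced factor, had 0.38 at 0.493 to 1.01 CPM. Of 15 glucocorticoid targets 12 were below 0 with a median of -0.09. Zbtb16, one of them, stood at 11.9 to 24.5 CPM early and 8.61 to 16.7 CPM late, a log2 fold change of -0.46 (95% interval -0.82 to -0.11). Fkbp5, a cochaperone induced by glucocorticoids, stood at 41.3 to 49.5 CPM early and 35.9 to 53.8 CPM late, a value of -0.05. Hypoxia genes had a median of -0.08, with 12 of 14 below 0, and it was -0.03 without the library labelled knockout 7. Chaperones had 16 of 21 above 0 and a median of 0.05, with 11 above 0 within the labelled knockouts (median 0.00) and 19 within the labelled wild types (0.09). At an unadjusted p under 0.05, 4 chaperones (19%) were higher in late and 1 (4.76%) lower, against 1.84% and 1.91% of all genes. Manf and Sdf2l1, which serve protein folding in the endoplasmic reticulum, had 0.21 and 0.26. Manf was highest in the late libraries labelled knockout 8 and wild type 5, at 43.7 and 41.5 CPM, and Sdf2l1 in wild type 5 and wild type 7, at 12.9 and 11.3 CPM. The cytosolic chaperone Hsp90ab1 had -0.10. Rbm3, which rises in the cold, stood at 96.1 to 109 CPM early and 96.5 to 148 CPM late, where 148 CPM came from the library labelled wild type 5. Cirbp, also induced by cold, stood at 51.8 to 64.2 and 49.4 to 68.4 CPM. Cholesterol synthesis genes had a median of -0.06 with 14 of 16 below 0. Within the labelled knockouts that median was 0.00 with 9 above 0, and within the labelled wild types -0.10 with 0 above 0. MHC class I genes had -0.12, which was -0.01 without the library labelled wild type 1 and -0.07 without wild type 5, and interferon-stimulated genes had -0.03. Rsad2, an interferon-stimulated gene, had -0.32, and H2-D1, of MHC class I, -0.23 with the early library labelled wild type 1 at 24.6 CPM against 10.2 to 16.4 CPM elsewhere. Lists of early response factors, interneurons, dorsal striatum, septum and thalamus, acute inflammation, casein kinase 1, opioid signalling, nuclear RNA and histones had medians between -0.05 and 0.01. The X- and Y-linked list had -0.29 over 5 genes, and the single tested blood gene had -0.28.

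A difference between the sets appeared where the genotype label entered. In a model of the 4 groups, the interaction of labelled genotype with early or late was called by edgeR for 4 of 15691 genes (0.0255%), 3 below 0 and 1 above 0, with 281 (1.79%) at an unadjusted p under 0.05. A negative interaction means that the late minus early value was lower in the labelled knockouts than in the labelled wild types. All 4 genes lie on chromosome 15. Within the labelled knockouts and within the labelled wild types edgeR called 0 genes each, with 357 and 476 at an unadjusted p under 0.05. Between the labels it called 0 genes among early and 0 among late libraries, with 247 and 411.

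Csnk1e had the smallest p, with an interaction of -1.65 log2 (SE 0.22, 95% interval -2.11 to -1.19) and edgeR adjusted p = 0.0113. Its labelled knockouts were higher than wild types by 0.81 log2 (SE 0.15) among early libraries, and the same difference was -0.84 (SE 0.15) among late libraries. Neither passed the test alone (edgeR adjusted p = 0.904 and 0.221). Over all libraries its late minus early value was -0.08, with an interval from -0.57 to 0.42. The interaction of Csnk1e was not called in 3 of the 16 fits that leave out 1 library.

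Ptp4a3, a protein tyrosine phosphatase from 73723145 to 73758766, lies 5.7 Mb before Csnk1e and had the same sign. The early labelled knockouts had 46.8, 50.9, 50.8, 49.5 and 46.1 CPM and the early labelled wild types 40.9, 39.1 and 40.7 CPM. The late labelled knockouts had 36.6, 42.1 and 38.2 CPM and the late labelled wild types 54.1, 45.4, 56.3, 50.5 and 48.8 CPM. The labels did not overlap in either set, and their order was opposite. The interaction was -0.67 log2 (SE 0.10), edgeR adjusted p = 0.019. Ptp4a3 was not called in 5 of the 16 fits that leave out 1 library. It was also not called on flow cell 1 alone (edgeR adjusted p = 0.357), but was on flow cell 2 (0.00235).

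Cthrc1, a secreted protein of collagen-rich tissue, from 39076932 to 39087121, is 40.4 Mb before Csnk1e. The early labelled knockouts held 3.89, 2.30, 2.50, 2.38 and 5.40 CPM and the early labelled wild types 0.597, 1.04 and 2.55 CPM. The late labelled knockouts held 0.865, 0.706 and 0.645 CPM and the late labelled wild types 4.81, 4.20, 4.45, 4.71 and 2.56 CPM. Its labels overlapped in the early set through the library labelled wild type 3 and did not overlap in the late set, where the lowest wild type was again wild type 8. The interaction was -3.75 log2 (SE 0.56), edgeR adjusted p = 0.019. Cthrc1 was not called in 5 of the 16 fits that leave out 1 library. It was also not called on flow cell 2 alone (edgeR adjusted p = 0.0678), but was on flow cell 1 (0.00983).

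A930017M01Rik, annotated as a transcribed processed pseudogene from 44752280 to 44884740, had the opposite sign. It stood at 12.9 to 15.5 CPM in the early labelled knockouts and 17.9 to 20.7 CPM in the early labelled wild types. In the late libraries it stood at 18.4 to 19.7 CPM in labelled knockouts and 12.2 to 15.9 CPM in labelled wild types, without overlap in either set. The interaction was 0.78 log2 (SE 0.12), edgeR adjusted p = 0.0336. This gene was not called in 12 of the 16 fits that leave out 1 library, nor with the Xist level as covariate (edgeR adjusted p = 0.0778), nor on flow cell 1 or flow cell 2 alone (0.154 and 0.0678). Of the libraries with Xist above 1000 CPM, 0 are early labelled wild types. The next by p was Spag1, a factor that assembles ciliary dynein arms, 43.2 Mb before Csnk1e, with -1.09 log2 and edgeR adjusted p = 0.157.

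**Figure D4:**
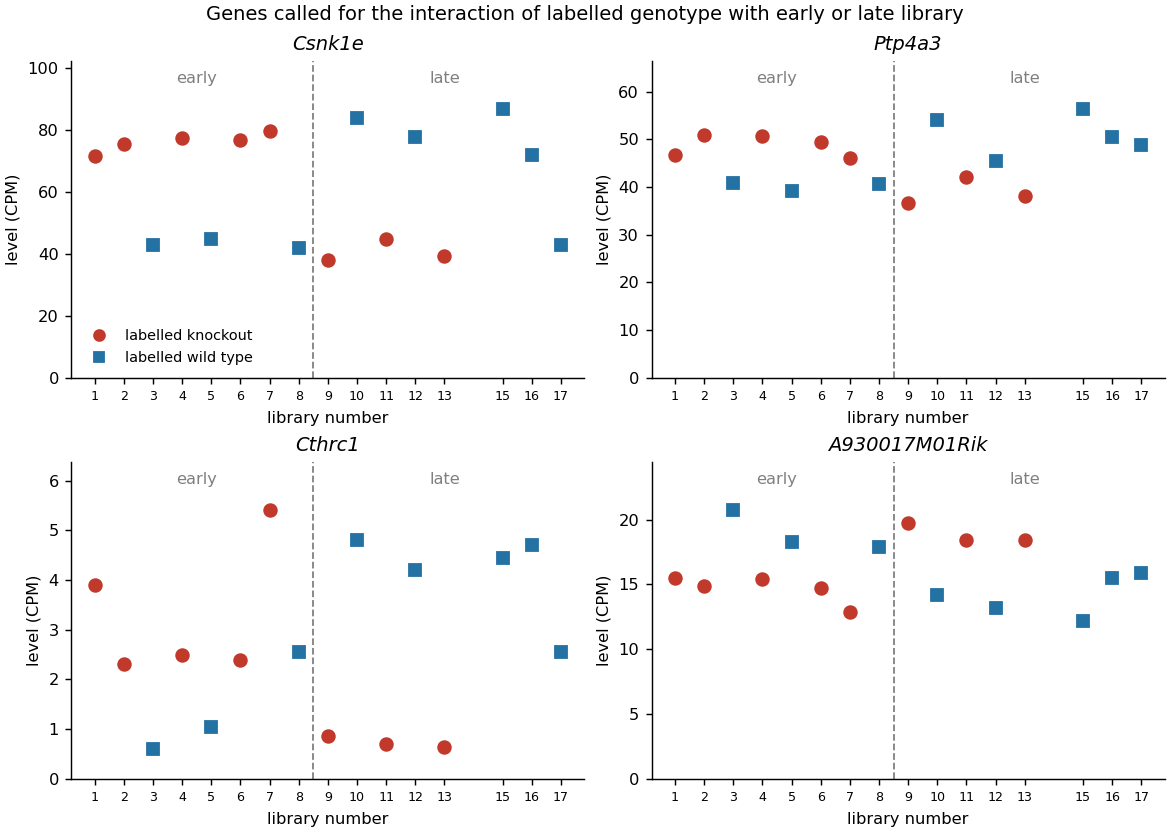
Levels in CPM (y axis, from 0) of the 4 called interaction genes against library number (x axis), with red circles for labelled knockout, blue squares for labelled wild type and a dashed line between early and late. In Csnk1e, Ptp4a3 and Cthrc1 the labelled knockouts change from the higher to the lower side at the line, as from 71.7 to 79.5 CPM to 38 to 44.7 CPM in Csnk1e, and in A930017M01Rik from the lower to the higher side.

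The interaction was concentrated on chromosome 15. Of the 20 genes with the smallest interaction p, 18 lie there. Of 609 tested chromosome 15 genes 58 (9.52%) had an unadjusted p under 0.05, against 221 of 14902 positioned genes elsewhere (1.48%). In all 58 the labelled knockout minus wild type value had opposite signs among early and late libraries, a pattern that a large interaction favours by its construction. Along the chromosome the share was 41.9% of 43 genes between 50 and 40 Mb before Csnk1e and 27.8% of 18 genes between 40 and 30 Mb before it. It was 10.8% and 10.4% within 10 Mb on either side, and 0.654% of 153 genes from 10 to 30 Mb beyond it. Other members by p included Mroh5 and Jrk, both under 6 Mb before Csnk1e, with -3.51 and 0.75 log2, the ribosomal gene Rpl3, 0.6 Mb beyond it, with -0.48, and Cpq and Cox6c, in the distant cluster, with -1.73 and -0.52. None of these 5 was called, with edgeR adjusted p from 0.211 to 0.247. The 2 of the 20 genes outside chromosome 15 were Mesp2 on chromosome 7, a transcription factor of somites, and E230016K23Rik on chromosome 11. Mesp2 stood at 0.264 to 0.758 CPM in early labelled knockouts, 2.00 to 2.77 CPM in early labelled wild types and 2.32 to 2.50 CPM in late labelled knockouts. The late labelled wild types held 0.36 to 0.571 CPM, except wild type 8 at 2.87 CPM. Its interaction was 3.45 log2 with edgeR adjusted p = 0.232.

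**Figure D5:**
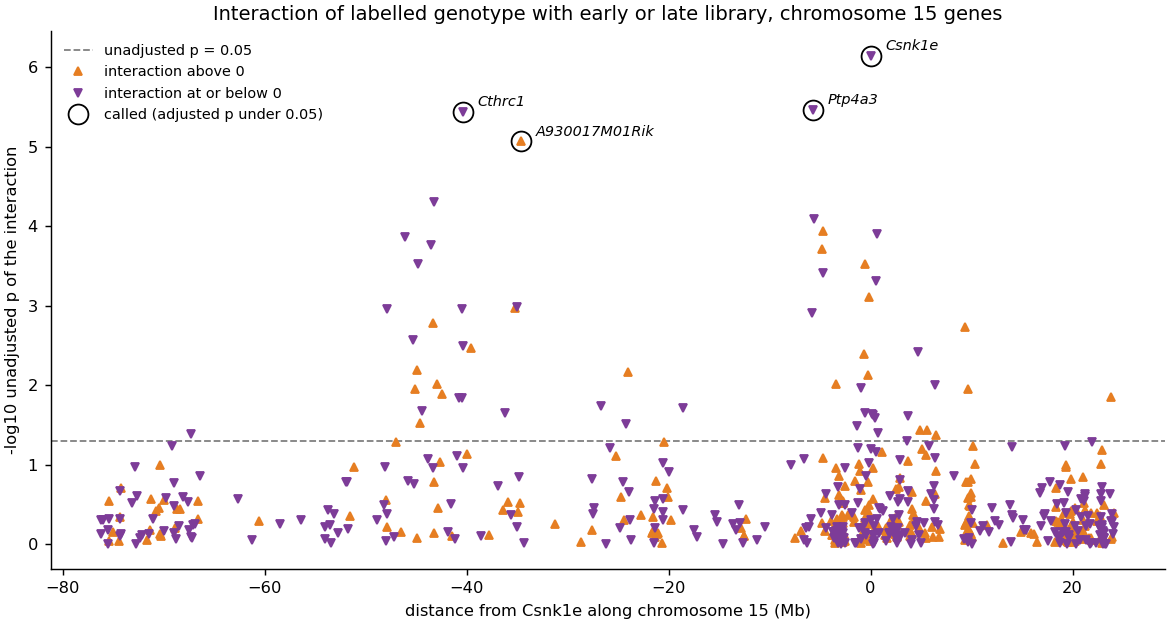
The -log10 of the unadjusted interaction p (y axis) of 609 chromosome 15 genes against their distance from Csnk1e in Mb (x axis), with triangles up for an interaction above 0, triangles down for one at or below 0 and circles for the 4 called genes. High values stand in 2 stretches, between 50 and 30 Mb before Csnk1e and within 10 Mb of it.

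The interaction calls depend on single libraries. Calls numbered 0 without the library labelled knockout 6, wild type 1 or wild type 2, and 2 without knockout 2, 7 or 8. There were also 0 without knockout 1 and wild type 7 together, where the edgeR adjusted p of the 4 genes was 0.0545 to 0.0722. Without the library labelled wild type 8 there were 16 calls, 15 of them on chromosome 15, and Csnk1e was then also called within each label and between the labels within each set. DESeq2 called 13 genes, all 4 among them and 12 on chromosome 15. Why the order of the labels turned between early and late libraries was not tested.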

How the data were processed

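Striatal poly(A) RNA of 16 mice was sequenced as single-end reads of 50 bases. The authors deposited raw read counts for every gene, separately for each lane of each mouse. The submitters' processing notes name the build mm10 and, without roles, HTSeq 0.6.1p1, TopHat2 2.0.0, FastQC 0.10.1 and edgeR 2.14. Neither annotation nor strand setting is given in the sources used here. The 5 summary rows per file were left out of library sizes. Chi-square divided by its degrees of freedom was 1.004 to 1.031 between lanes of a library and 6.311 to 37.996 between 26 pairs of libraries of a group. The 4 lanes were therefore added, each mouse being 1 replicate, and p-values measure the spread between mice. Gene reads ran from 22088005 to 30238947 per library.

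Late minus early was fitted with the two-sided quasi-likelihood F test of edgeR 4.0.16 (R 4.3.3), with TMM scaling, filterByExpr (15691 of 23420 genes, 99.97% of gene reads) and labelled genotype as covariate. Calls needed a Benjamini-Hochberg adjusted p under 0.05 over all genes tested. The other contrasts came from a model of the 4 groups. List scores used log2 CPM with a prior count of 2. Gene positions, lengths and GC came from GENCODE M21 on GRCm38, which placed 23013 genes by symbol or synonym. Libraries were compared by exact permutation tests (numpy 2.4.6), and Spearman correlations came from scipy 1.17.1.

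The comparison, the 41 gene lists and the alternatives were chosen with earlier results of these data known. Named genes were Csnk1e, the 10 with the smallest p in each direction, the 5 of the interaction, the 3 of each other contrast and list, and 16 fixed genes. Mfn2, Pfkp, Magee1, Mesp2, Jrk, Cpq, E230016K23Rik and Npas4 were named after their values were seen. The edgeR fit of late minus early was tested on simulated data, and the model of the 4 groups, DESeq2 and voom were not. Alternatives included DESeq2 1.42.0, limma 3.58.1 (voom), other scalings, other filters and covariates, single flow cells, a replicate block and leaving out each library.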

Additional observations from a re-analysis of the deposited data

Results flagged for a closer look

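Of 262 sets of 8 values examined for a value far from the other 7, 21 held one, where chance gives about 1 in 20. None of them was weighed further.

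Among list scores of early libraries, the library labelled knockout 1 stood apart in choroid plexus at 3.88 and in microglia at 0.24, knockout 2 in ependymal genes at -1.23 and knockout 3 in early response transcription factors at -0.53. Also among early libraries, knockout 4 stood apart in the X- and Y-linked list at -2.99, wild type 1 in MHC class I at 0.60 and wild type 3 in interneuron genes at -0.16. Among late libraries, wild type 5 stood apart in core clock activators at 0.15 and in sodium and potassium channels at 0.10, wild type 7 in choroid plexus at 4.57 and wild type 8 in the single tested blood gene at 0.48.

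Among single genes of early libraries, the library labelled knockout 3 stood apart in Rps26 at 69.2 CPM and Rsad2 at 3.87 CPM, knockout 2 in Ak7 at 0.567 CPM and wild type 1 in H2-D1 at 24.6 CPM. Among late libraries, wild type 5 stood apart in Lrp4 at 36.2 CPM and Rbm3 at 148 CPM, wild type 6 in Mir208b at 0.204 CPM, wild type 7 in Mfn2 at 208 CPM, wild type 8 in Rps26 at 84.0 CPM and knockout 6 in Pfkp at 205 CPM.

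The late minus early value differed between the labelled genotypes by the test of the interaction in Csnk1e at -1.65, Ptp4a3 at -0.67, Cthrc1 at -3.75 and A930017M01Rik at 0.78 log2.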

How the results depend on the processing

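Late minus early gave 0 calls under every alternative run. Its count at an unadjusted p under 0.05 was 218 with the replicate block and 444 to 723 with single libraries left out, against 587. Of 97 single gene results 82 kept their sign in every alternative. With the replicate block the sign turned in Csnk1e (0.11), Ugt8a (-0.03), Mog (-0.03), Per1 (0.11), Arntl (0.17), Nr1d1 (0.14), Fos (0.21), Nos1 (0.07), Drd2 (0.25), Xist (-7.97) and Ddx3y (2.63). Mouse numbers do not pair the mice by the labels, and the correlations of same-numbered deviations ran from -0.351 to 0.0796, so the block is no pairing. Numbers 1 to 3 are early and 6 to 8 are late under both labels. With the block, late minus early therefore rests on numbers 4 and 5 alone, where every early library is labelled knockout and every late one wild type. These sign changes and the lower count can follow from that. Without knockout 1 and wild type 7, Fos had 0.04 and Drd2 0.01. Penk had -0.04 with Csnk1e in place of genotype, -0.01 with no genotype covariate and 0.00 without knockout 3. With labellings over all 16 libraries the differences in ambiguous reads (0.00151), reads with more than 1 alignment (0.00504) and reads of the 50 highest genes (0.0621) changed sign.

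Interaction calls numbered 13 with DESeq2, 2 on flow cell 1, 2 on flow cell 2, 0 with the replicate block, 0 without knockout 1 and wild type 7, and 0 to 16 with single libraries left out. At an unadjusted p under 0.05 there were 452 genes with no low count filter and 246 to 590 with single libraries left out. DESeq2 called 2 genes within labelled knockouts, 5 within labelled wild types, 2 between labels in early and 5 in late libraries. With single libraries left out these were 0 to 2, 0 to 2, 0 to 2 and 0 to 3, and the unadjusted counts were 292 to 720 within labelled knockouts and 257 to 911 between labels in late libraries.

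With single libraries left out, late minus early ran from -0.23 to 0.08 in Csnk1e, -0.23 to 0.07 in Fos, -0.01 to 0.09 in Ppp1r1b, -0.03 to 0.13 in Drd1a, -0.07 to 0.03 in Drd2 and -0.05 to 0.07 in Penk. Npas4 between labels in early libraries ran from -0.39 to 0.32. List medians ran from -1.82 to 1.58 in choroid plexus, -0.08 to -0.03 in hypoxia, -0.20 to -0.03 in cortical neurons, -0.17 to -0.01 in MHC class I, -0.38 to -0.15 in meningeal fibroblasts, -0.06 to 0.15 in ventral striatum, -0.12 to 0.02 in early response factors and 0.04 to 0.18 in oligodendrocytes, among others. The cause of these shifts was not tested. Chosen after seeing the data were, for list medians, leaving out libraries and the Xist covariate, and, for the interaction, upper quartile scaling, single flow cells, the stricter filter and leaving out knockout 3 by itself as a doubted library.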

Other observations

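Npas4, a transcription factor induced by neuronal activity and named after its values were seen, overlapped between the labels among early libraries, at 11.9 to 38.6 CPM in labelled knockouts and 15.0 to 38.9 CPM in labelled wild types. Among late libraries the labels did not overlap, at 35.1 to 51.5 CPM in knockouts and 12.1 to 18.4 CPM in wild types. How many of all genes show such a gap between 3 and 5 libraries was not counted, so the gap alone carries no weight. The log2 difference between labels was -0.11 (SE 0.34) early and 1.46 (SE 0.33) late, and edgeR called neither the late difference (adjusted p = 0.938) nor the interaction (adjusted p = 1).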
